A study of Mus musculus with 18 samples.

Results

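The genes described are 10 targets of the transcription factor p53, *Cdkn1a*, *Mdm2*, *Bax*, *Bbc3*, *Ccng1*, *Trp53inp1*, *Sesn2*, *Phlda3*, *Zmat3* and *Eda2r*, picked by symbol from a count table of 36757 genes. RNA-seq was done on the colorectum of C57BL/6 mice, either wild type (RNF138fl/fl) or RNF138-/-, with 3 libraries in each of 6 groups. RNF138 is a RING finger ubiquitin ligase with a known part in the DNA damage response, and its loss was compared with the wild type within each model. For chronic colitis, mice aged 6 to 8 weeks drank 2% dextran sodium sulfate (DSS) for 7 days and plain water for 14 days in repeated cycles, and were killed 4 weeks after the last one. For colitis-associated colorectal cancer (CAC), mice of the same age first had 10 mg/kg azoxymethane (AOM), a colon carcinogen, by intraperitoneal injection and began DSS 4 days later. The organoids were grown in matrigel from tumour-bearing pieces of CAC intestine. Every group had DSS, the organoids through their source mice, and both genotypes of CAC and of the organoids had AOM. How the RNF138-/- mice were made is not given in the sources used here. Male and female mice were used in the models, no sex is given per library, and how many mice gave the organoids is not given in the sources used here. Nothing states that the libraries of a group came from separate animals, so p-values measure the spread between these libraries, which may be technical.

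p53 is kept low in unstressed cells by Mdm2, the ubiquitin ligase that marks it for degradation, and DNA damage or other stress frees it to bind and activate its targets. Those targets halt the cell cycle, start cell death, limit growth signalling and, through *Mdm2* itself, close a negative feedback loop. In the intestine p53 is best known for the response of crypt cells to irradiation and genotoxic drugs, and it is often mutated in cancers that arise from colitis.

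The libraries held between 11514716 and 24390082 gene counts (median 17332367), and the 10 genes had between 17 counts (*Eda2r*) and 10318 counts (*Cdkn1a*) in a library. *Rnf138* was not lower in the libraries labelled RNF138-/-. It read 15.6 to 25.1 against 18 to 19.4 CPM (gene counts scaled by the size of the library) in colitis, 21.5 to 27.6 against 39.7 to 45.8 in CAC and 37.7 to 55.7 against 42.8 to 50.3 in the organoids, and its log2 fold change was −0.06, 0.72 and −0.10 (edgeR, adjusted p = 0.963, 0.0426 and 0.668). A gene count cannot show a missing exon, so the label was neither borne out nor contradicted by it. In colitis, replicate 3 of each genotype stood apart. The log2 level of GC-rich less that of GC-poor genes, relative to the mean of the 6 colitis libraries, was −0.65 (wild type) and −0.656 (RNF138-/-) there and 0.208 to 0.607 in the other 4 colitis libraries. This measure also differed between models. Relative to the mean of all tissue libraries it was −0.341 to −0.117 in CAC and 0.195 to 0.447 in the organoids. In colitis it was −0.389 and −0.381 in replicates 3 and 0.477 to 0.883 in the other 4 libraries. In CAC, wild-type replicate 3 had the lowest total count and the highest summed level of 10 colonocyte and goblet cell markers, 53200 CPM against 14600 CPM in the lowest wild-type library.

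Of the 10 genes, 4 carried the 10-base p53 half-site consensus, with no mismatch, in the reference promoter, taken as 250 bases before to 50 bases after a start site (RefSeq, mm10). These stretches are shown because they hold the sequence that p53 is known to read, with half-sites in capitals.
Cdkn1a, chr17:29090886-29090967, plus strand: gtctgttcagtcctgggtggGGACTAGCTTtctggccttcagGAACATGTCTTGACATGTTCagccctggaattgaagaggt
Ccng1, chr11:40755442-40755501, minus strand: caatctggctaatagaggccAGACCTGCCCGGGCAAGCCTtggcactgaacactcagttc
Bax, chr7:45467070-45467130, minus strand: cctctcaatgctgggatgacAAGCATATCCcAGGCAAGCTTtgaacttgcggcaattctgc
Mdm2, chr10:117710915-117710964, minus strand: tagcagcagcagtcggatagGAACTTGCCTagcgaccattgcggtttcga
A full site, meaning 2 half-sites 0 to 13 bases apart, was present without mismatch only in *Cdkn1a*, and 0.0731% of 32851 mouse promoter windows held one. With at most 1 mismatch in each half-site it was present in *Cdkn1a*, *Ccng1* and *Bax*, against 6.72% of windows, and 8.36% of windows held a perfect half-site. The half-site reads on both strands, its capitals above include those with 1 mismatch, and 2 sites in the *Cdkn1a* window share a half-site. The 11 windows matched 8 of the 10 genes, *Trp53inp1* and *Zmat3* having no entry. In the windows of *Bbc3*, *Sesn2*, *Phlda3* and *Eda2r* these letters were not found. Sequence outside the windows, introns included, was not searched, so a gene without a site here may hold one elsewhere.

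*Cdkn1a* (chr17:29090976-29100727, plus strand of mm10) encodes p21, the inhibitor of cyclin-dependent kinases through which p53 halts the cell cycle. Its CPM was 241, 223 and 166 in wild-type and 270, 260 and 127 in RNF138-/- colitis, 229, 188 and 333 against 116, 126 and 148 in CAC, and 595, 609 and 370 against 603, 527 and 580 in the organoids. All 6 organoid libraries lay above all 12 tissue libraries, and the RNF138-/- CAC libraries lay below those of wild-type CAC. Of its exon bases, 7.68% overlap AC167363.2, a gene on the opposite strand. Whether the counting used strand is not given in the sources used here, and without strand those reads cannot be told apart. *Ccng1* (chr11:40748552-40755311, minus strand) encodes cyclin G1, which recruits a phosphatase to Mdm2. Its CPM was 91.1, 92.3 and 131 against 104, 113 and 103 in colitis, 127, 120 and 99.2 against 126, 141 and 113 in CAC, and 211, 219 and 213 against 279, 233 and 250 in the organoids. The organoids were again all above the tissues, whose 4 groups overlapped.

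*Mdm2* (chr10:117688875-117710758, minus strand) had CPM values of 37.6, 41.7 and 41.9 in wild-type and 44.0, 51.0 and 50.2 in RNF138-/- colitis, 58.3, 60.5 and 70.2 against 73.2, 67.1 and 71.5 in CAC, and 165, 149 and 117 against 201, 189 and 189 in the organoids. Its levels were lowest in colitis, intermediate in CAC and highest in the organoids, with no overlap between the models. *Zmat3* (chr3:32334792-32366014, minus strand) encodes an RNA-binding zinc finger protein that regulates splicing. Its CPM was 34.7, 29.0 and 32.8 against 34.2, 34.8 and 20.8 in colitis, 33.4, 47.1 and 25.3 against 53.3, 66.7 and 48.1 in CAC, and 131, 137 and 132 against 180, 185 and 186 in the organoids. Every organoid value exceeded the tissue values, and the organoid genotypes stood apart at 133 ± 3.2 and 183 ± 2.85 (SD, n = 3). *Eda2r* (chrX:97333840-97377216, minus strand) encodes a receptor of the tumour necrosis factor family that binds ectodysplasin A2. Its CPM was 1.40, 2.86 and 3.84 against 2.99, 4.02 and 3.15 in colitis, 7.88, 8.42 and 1.61 against 11.5, 21.9 and 12.7 in CAC, and 39.3, 37.6 and 34.3 against 51.2, 46.2 and 54.4 in the organoids. Wild-type CAC replicate 3, at 1.61 CPM, lay within the colitis range.

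*Bax* (chr7:45461697-45466898, minus strand) encodes the pore-forming protein that opens the outer mitochondrial membrane in apoptosis. Its CPM was 36.4, 46.3 and 29.5 against 62.1, 49.7 and 27.7 in colitis, 35.0, 31.5 and 15.5 against 37.4, 36.6 and 37.0 in CAC, and 94.1, 132 and 94.3 against 61.5, 50.2 and 58.5 in the organoids. In the organoids the RNF138-/- libraries were all below the wild type. Of the exon bases of *Bax*, 12.2% overlap Gm45808, a gene on the same strand, so strand could not tell those reads apart. *Bbc3* (chr7:16308393-16318205, plus strand) encodes PUMA, which frees Bax by binding its inhibitors. It read 22.3, 35.8 and 6.13 against 32.3, 23.5 and 10.4 CPM in colitis, 13.4, 12.8 and 9.94 against 11.7, 14.4 and 11.7 in CAC, and 53.6, 47.8 and 37.8 against 46.4, 26.7 and 33.9 in the organoids. Replicate 3 was the lowest of its group in both genotypes of colitis. *Phlda3* (chr1:135766119-135769136, plus strand) encodes a pleckstrin homology protein that restrains the kinase Akt. It had 31.7, 35.9 and 13.8 against 60.0, 43.2 and 13.9 CPM in colitis, 29.8, 24.1 and 7.76 against 32.8, 33.1 and 29.2 in CAC, and 219, 234 and 125 against 176, 158 and 173 in the organoids. The lowest 3 of the 18 values were the 3 libraries that stood apart. The transcripts of these genes are GC-rich, with 65.2% GC in *Bbc3*, 63.5% in *Bax* and 62.6% in *Phlda3*, against 38.8% to 58.7% in the other 7 genes.

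*Trp53inp1* (chr4:11156431-11174379, plus strand) encodes a stress protein with roles in autophagy and in p53 activity. Its CPM was 103, 102 and 162 against 74.3, 91.7 and 185 in colitis, 221, 220 and 165 against 224, 300 and 299 in CAC, and 276, 293 and 245 against 281, 232 and 261 in the organoids. Here the CAC and organoid libraries overlapped, and the colitis replicates 3 were the highest of their groups. *Sesn2* (chr4:132492032-132510501, minus strand) encodes sestrin 2, which lowers mTORC1 signalling under stress. It read 21.5, 16.1 and 16.3 against 15.5, 20 and 18 CPM in colitis, 11.1, 17.3 and 14.2 against 16.8, 21.2 and 15.8 in CAC, and 68.9, 45.2 and 47.0 against 76.1, 59.3 and 76.2 in the organoids. The tissue groups overlapped and lay below every organoid library.

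**Figure D1:**
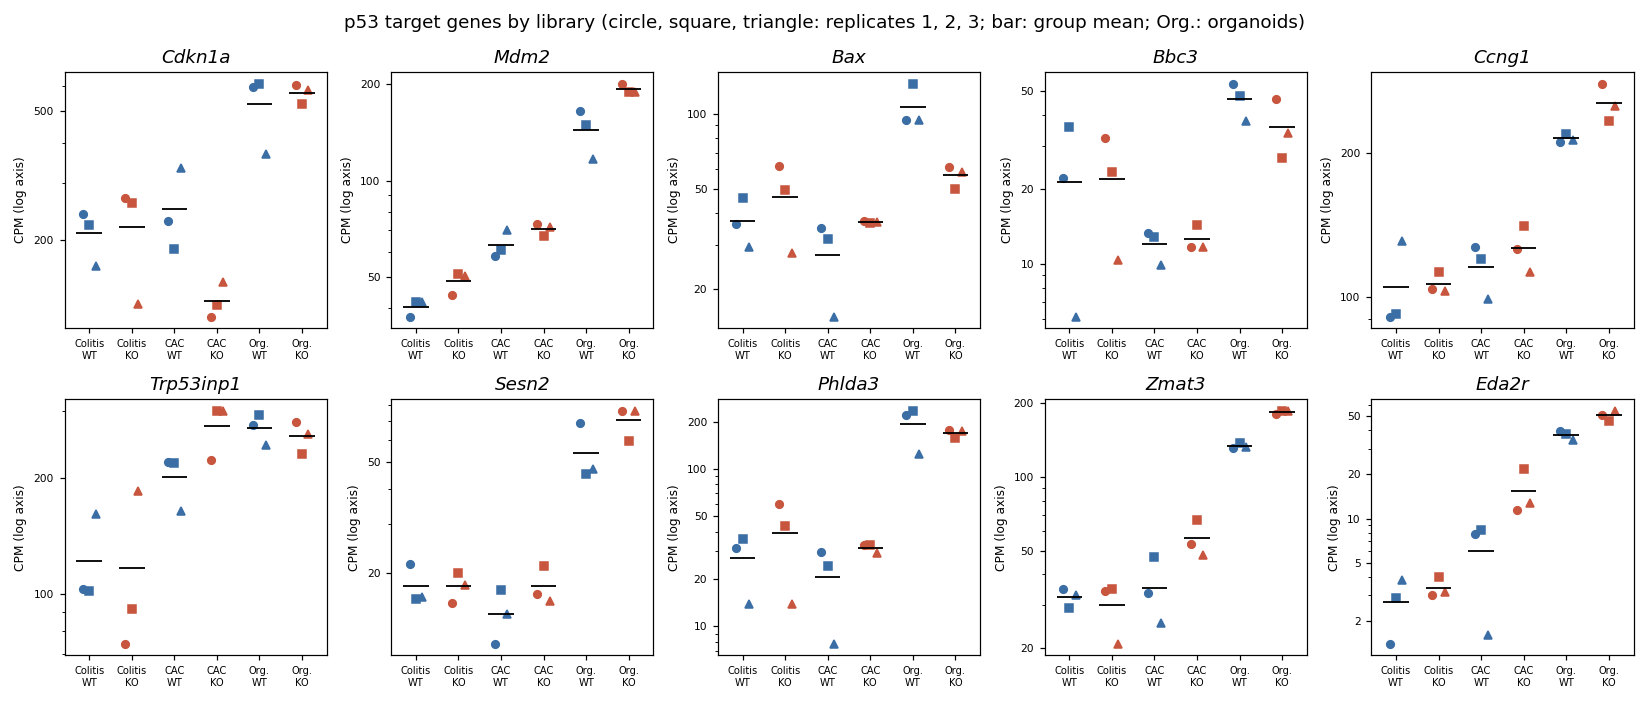
CPM on a log axis for each of the 10 genes in the 18 libraries, by model and genotype (blue, wild type; red, RNF138-/-; bars, group means; KO, RNF138-/-; Org., organoids). *Mdm2* ranges from 37.6 CPM in colitis to 201 CPM in the organoids without overlap between models, whereas the ranges of *Trp53inp1* overlap between RNF138-/- CAC (224 to 300 CPM) and the organoids, wild-type CAC lying below both at 165 to 221 CPM.

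Per kilobase of exon, the scale on which different genes can be compared, *Cdkn1a* was the most abundant in the wild-type organoids at 148 ± 37.7 CPM per kb (SD, n = 3), with *Phlda3* at 123 ± 37.8, *Bax* at 67.7 ± 13.8 and *Ccng1* at 61.0 ± 1.09. *Eda2r* was the lowest there at 6.29 ± 0.426 CPM per kb. In wild-type colitis *Cdkn1a* also led at 59.1 ± 10.9 CPM per kb, while *Phlda3* stood at 17.4 ± 7.52 and *Eda2r* at 0.458 ± 0.209. The ranges of *Cdkn1a* and *Phlda3* overlapped in the wild-type organoids and not in the RNF138-/- ones, at 160 ± 10.9 and 108 ± 6.15 CPM per kb.

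Between models, every gene but *Trp53inp1* had its highest group mean in the organoids. The RNF138-/- organoid ranges of *Bax* (50.2 to 61.5 CPM) and *Bbc3* (26.7 to 46.4 CPM) overlapped those of colitis, which reached 62.1 and 35.8 CPM. Of the 10 genes, 9 rose in organoids relative to CAC, as the mean of both genotypes in a fit of all 18 libraries (edgeR quasi-likelihood test, Benjamini-Hochberg adjusted p under 0.05), and 8 of them at least 2-fold. Of all 19390 genes tested 70.9% were called in this comparison, 30.7% as higher and 45.4% at least 2-fold in either direction. The highest value was that of *Phlda3*, which rose by 2.81 ± 0.36 in log2 units (SE, adjusted p = 3.49e-06), followed by *Eda2r* at 2.16 ± 0.30 (9.64e-06), *Sesn2* at 1.95 ± 0.15 (1.83e-08) and *Zmat3* at 1.81 ± 0.15 (4.57e-08). The apoptosis gene *Bbc3* rose by 1.72 ± 0.33, *Cdkn1a* by 1.60 ± 0.20, *Mdm2* by 1.32 ± 0.10, *Bax* by 1.29 ± 0.21 and *Ccng1* by 0.95 ± 0.11. The log2 fold change of *Trp53inp1* was 0.17 ± 0.20 (edgeR, adjusted p = 0.455), and it was −0.24 without a scaling factor and −0.05 with upper-quartile factors. The median of the 10 genes was 1.66 on the log2 scale and that of all genes −0.18, or −0.57 without a scaling factor. Within RNF138-/- alone 8 genes were called, *Bax* not being among them at 0.62 ± 0.29 (adjusted p = 0.0764), and 9 within the wild type, against 59.9% and 60.7% of all genes. Y-linked genes (4 summed) were at 188 to 229 CPM in wild-type CAC and at 0 in the wild-type organoids, so within the wild type the model and the sex of the source mice cannot be told apart, while both RNF138-/- groups held them (148 to 202 and 242 to 281 CPM). With a correction for GC content, chosen after seeing the data, *Bax* was at 0.31 (adjusted p = 0.0791) and *Trp53inp1* at 0.39 (0.0160), while *Bbc3* and *Phlda3*, still called, were at 0.52 (0.0191) and 1.96 (2e-06), the latter below *Eda2r* at 2.29.

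The cell makeup of the libraries moved with this comparison. The summed level of 6 fibroblast markers was 924 to 1730 CPM in CAC and 9100 to 49700 CPM in the organoids (6 of 6 genes higher), that of 12 epithelial markers 8150 to 22100 against 6330 to 11700 CPM (1 higher and 8 lower), and that of 6 B and plasma cell markers 125 to 2270 against 0.299 to 1.67 CPM, with 1 to 4 of the 6 at 0 in each organoid library. In bulk libraries fewer cells of a type and less RNA per cell cannot be told apart, and the part of cell makeup in the rise of the p53 targets was not tested.

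**Figure D2:**
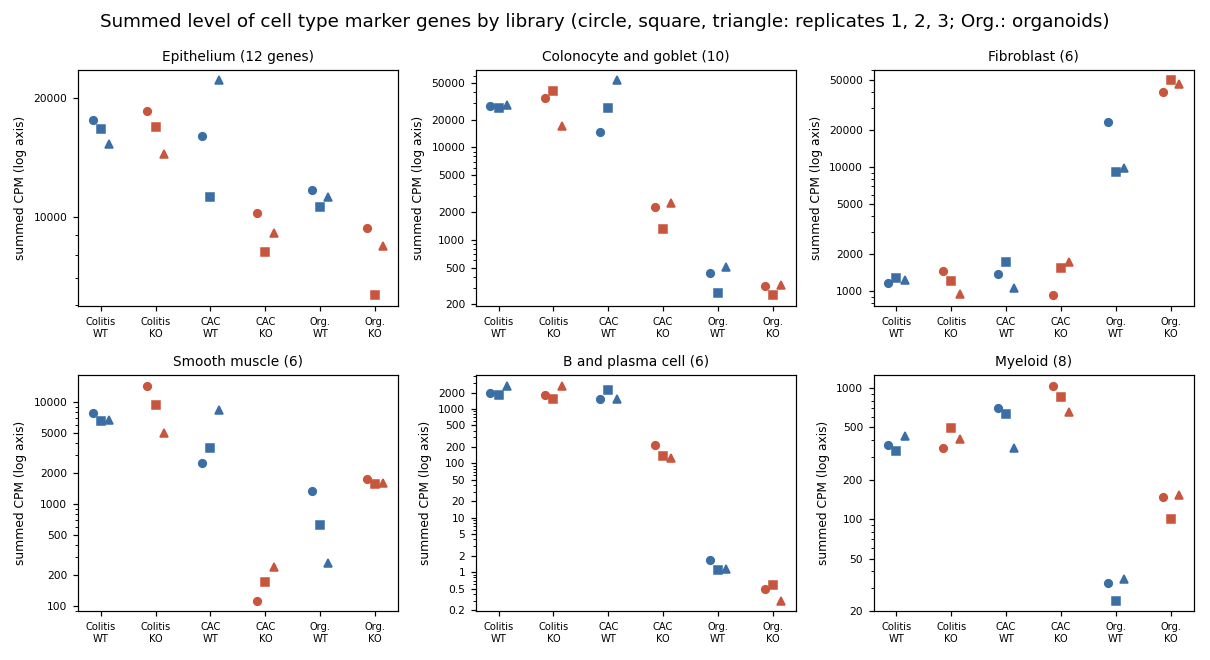
Summed CPM, on a log axis, of 6 lists of cell type markers in each library (blue, wild type; red, RNF138-/-; KO, RNF138-/-; Org., organoids). Fibroblast markers reach 9100 to 49700 CPM in the organoids, and smooth muscle and B or plasma cell markers are lowest among the tissues in RNF138-/- CAC.

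CAC was set against colitis to ask how the targets stood in tumour-bearing tissue, a comparison that shares its CAC libraries with the one above. Over both genotypes 4 genes rose and 1 fell, 5 of 10, with 54.6% of all 19390 genes called, 28.1% higher and 26.5% lower. A fold change of at least 2 was reached by 1, *Eda2r*, against 28% of all genes. *Eda2r* rose most, by 1.68 ± 0.31 on the log2 scale (edgeR, adjusted p = 0.000322), with *Trp53inp1* at 0.98 ± 0.20 (0.000617), *Mdm2* at 0.59 ± 0.10 (1e-04) and *Zmat3* at 0.52 ± 0.15 (0.00842). *Bbc3* fell by 0.82 on the log2 scale (SE 0.33, adjusted p = 0.0434), but it lost its call when any 1 of 8 libraries was left out (0.0553 to 0.127), keeping it only without a colitis replicate 3 or wild-type CAC replicate 1 or 2, and its value was 0.40 (0.0771) with the correction for GC content. *Zmat3* lost its call without wild-type CAC replicate 2 (0.34, 0.0529). Without RNF138-/- colitis replicate 3, *Cdkn1a* (−0.43, 0.0359) and *Bax* (−0.57, 0.0150) were also called, without wild-type CAC replicate 1 *Bax* (−0.54, 0.0435), and without wild-type colitis replicate 3 *Ccng1* (0.25, 0.0457). Under that correction *Bax* turned from −0.39 (0.119) to 0.51 (0.0111) and *Phlda3* from −0.34 (0.404) to 0.56 (0.0505). Leaving out the 3 libraries that stood apart gave 9 calls of 10, against 60.7% of all genes in that fit, with *Ccng1* also higher at 0.32 (0.00763) and *Cdkn1a*, *Bax* and *Phlda3* also lower at −0.60, −0.46 and −0.52. In that fit *Bbc3* was at −1.15 (edgeR, adjusted p = 0.000159). The rises of *Mdm2*, *Eda2r*, *Trp53inp1* and *Zmat3* kept their call in both of those fits. Within the wild type only *Mdm2* was called, at 0.64 ± 0.14 (edgeR, adjusted p = 0.00383), against 19.8% of all genes (12.3% higher), while *Eda2r* was at 1.18 ± 0.44 (0.0731), *Trp53inp1* at 0.73 ± 0.28 (0.0754) and *Zmat3* at 0.14 ± 0.21 (0.685). Within RNF138-/- the same 4 genes rose, *Eda2r* by 2.18 ± 0.44 and *Zmat3* by 0.90 ± 0.22, and *Cdkn1a* fell by 0.75 (SE 0.28, adjusted p = 0.0314), against 54.7% of all genes (27.9% higher and 26.7% lower). Cell type markers moved with this comparison too. Over both genotypes 6 of 6 smooth muscle markers (median −3.17 on the log2 scale), 10 of 10 colonocyte and goblet cell markers (−2.26) and 5 of 5 neuron and glia markers (−1.98) were lower in CAC. Within RNF138-/- the same counts were lower, at medians of −5.89, −5.19 and −3.41, and within the wild type 0, 0 and 1 were. Of 8 myeloid markers 4 were higher and 1 lower (median 0.72), with 5 and 1 within RNF138-/- and 2 and 1 within the wild type. Of 6 B and plasma cell markers 4 were lower, with 6 lower within RNF138-/- and 1 higher within the wild type. The part of cell makeup in the values of the p53 targets was not tested.

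**Figure D3:**
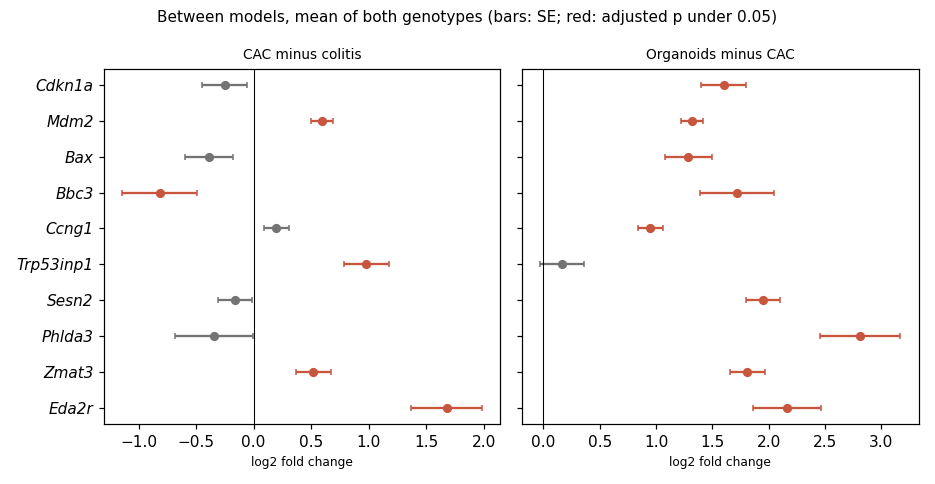
Log2 fold change of each gene (points) with its SE (bars) for CAC minus colitis and organoids minus CAC, averaged over genotypes; red marks an edgeR adjusted p under 0.05. On the left 4 genes are red above 0 and *Bbc3* below it, and on the right every gene but *Trp53inp1* is red above 0.

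The genotypes were then compared within each model. In colitis 0 of 10 genes were called (edgeR; 0 also at an unadjusted p under 0.05, against 10.4% of genes, and 0 by DESeq2, against 2.62%), and 0.0902% of 16623 genes were. The log2 fold changes ran from −0.11 ± 0.23 for *Zmat3* to 0.51 ± 0.53 for *Phlda3*, with a median of 0.04 for the 10 genes and 0.02 for all genes. *Phlda3* ranged from 0.071 (without RNF138-/- replicate 1) to 0.92 (without RNF138-/- replicate 3) as single libraries were left out. The GC correction took it to 0.28, and *Bax* from 0.31 to 0.063. *Mdm2*, at 40.4 ± 2.41 against 48.4 ± 3.84 CPM (SD, n = 3), was the only one whose groups did not overlap, as those of 17.2% of all genes did not (8.87% higher and 8.32% lower in RNF138-/-), and its log2 fold change was 0.26 ± 0.16 (adjusted p = 0.649). An exact two-sided permutation test over 3 against 3 libraries cannot give a p below 0.1.

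In CAC, too, 0 of 10 genes were called by edgeR (2 at an unadjusted p under 0.05, *Cdkn1a* and *Zmat3*, against 33.8% of genes), against 6.38% of 17752 genes, and 1, *Cdkn1a*, by DESeq2, against 22.7% of genes. *Cdkn1a* had 250 ± 75.0 CPM in the wild type and 130 ± 16.6 in RNF138-/- (SD, n = 3), which was −1.0 ± 0.25 in log2 units (SE; edgeR, adjusted p = 0.0579). Without wild-type replicate 3, the library with most *Cdkn1a*, it was −0.71 (adjusted p = 0.0444), and with DESeq2 −1.0 (0.00529). *Eda2r* was at 1.30 ± 0.58 (0.167), *Zmat3* at 0.61 ± 0.25 (0.139), *Phlda3* at 0.57 ± 0.43 (0.375), *Trp53inp1* at 0.39 ± 0.19 (0.192) and *Bax* at 0.39 ± 0.28 (0.359). Without wild-type replicate 3 *Phlda3* was at 0.20 and *Bax* at 0.13 (edgeR, adjusted p = 0.395 and 0.496). Groups did not overlap for 5 genes, *Cdkn1a* lower and *Bax*, *Trp53inp1*, *Zmat3* and *Eda2r* higher in RNF138-/-, and neither did those of 45.2% of all genes (20.7% lower and 24.5% higher). In a fit of all 18 libraries, which shares 1 estimate of the spread, *Cdkn1a* (−0.94, edgeR adjusted p = 0.0241), *Zmat3* (0.66, 0.0342) and *Eda2r* (1.34, 0.0320) were called, with 23.5% of genes. Markers moved with genotype here as well. Those of smooth muscle summed to 2510 to 8390 CPM in wild-type and 113 to 242 CPM in RNF138-/- CAC (6 of 6 lower), those of colonocytes and goblet cells to 14600 to 53200 against 1320 to 2510 CPM (8 of 10 lower) and those of B and plasma cells to 1500 to 2270 against 125 to 215 CPM (6 of 6 lower). Their part in the values of the p53 targets was not tested.

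In the organoids 3 of 10 genes were called, 2 higher and 1 lower, against 35.5% of 15294 genes (17.9% higher and 17.7% lower). None of the 3 reached a fold change of 2, as 15% of all genes did. *Bax* fell from 107 ± 21.7 to 56.7 ± 5.86 CPM (SD, n = 3) from wild type to RNF138-/-, a change of −0.95 ± 0.16 in log2 units (SE; edgeR, adjusted p = 0.00483). It kept its call without any 1 library, at −1.03 to −0.76. *Zmat3* rose by 0.42 ± 0.09 (edgeR, adjusted p = 0.0115) and *Eda2r* by 0.41 ± 0.12 (0.0267), and both lost the call without a scaling factor, at 0.22 (0.142) and 0.21 (0.215), where the median of all genes was −0.24. In the fit of all 18 libraries they were at 0.46 (0.147) and 0.45 (0.483). *Eda2r* also lost its call with upper-quartile factors (0.34, 0.0544) and without wild-type replicate 2 or 3 or RNF138-/- replicate 1 or 3 (0.0505 to 0.11). Without RNF138-/- replicate 3 only *Bax* was called, against 18.9% of all genes, and without wild-type replicate 1 the calls were 5, against 44% of all genes, with *Mdm2* at 0.51 (0.0165) and *Sesn2* at 0.59 (0.0114) added. Without wild-type replicate 3 *Phlda3* was at −0.46 (0.0266). With all libraries *Mdm2* was at 0.39 ± 0.14 (0.0590), and it was called with DESeq2 (0.0441), without a filter (0.0448) and in the fit of all 18 libraries (0.0409). *Sesn2* stood at 0.35 ± 0.18 (0.153), *Ccng1* at 0.21 ± 0.11 (0.181), *Bbc3* at −0.42 ± 0.22 (0.158) and *Cdkn1a* at 0.08 ± 0.20 (0.779). *Bbc3* was called as lower without a scaling factor (−0.61, 0.0459), and lay at −0.64 to −0.24, with no call, when 1 library was left out. Groups did not overlap for *Mdm2*, *Ccng1*, *Zmat3* and *Eda2r*, all higher, and for *Bax*, lower, as for 53.2% of all genes (27.6% higher and 25.7% lower). Fibroblast markers summed to 9100 to 23200 CPM in wild-type and 40400 to 49700 CPM in RNF138-/- organoids (6 of 6 higher), and epithelial markers to 10600 to 11700 against 6330 to 9350 CPM (5 of 12 lower). Myeloid markers summed to 23.9 to 34.8 against 101 to 153 CPM (3 higher and 1 lower of 6 tested), and 2 of 6 smooth muscle markers were higher. The part of these markers was not tested. As Y-linked genes were at 0 CPM in all 3 wild-type organoid libraries and not in the RNF138-/- ones, the genotype and the sex of the source mice cannot be told apart in the organoids.

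**Figure D4:**
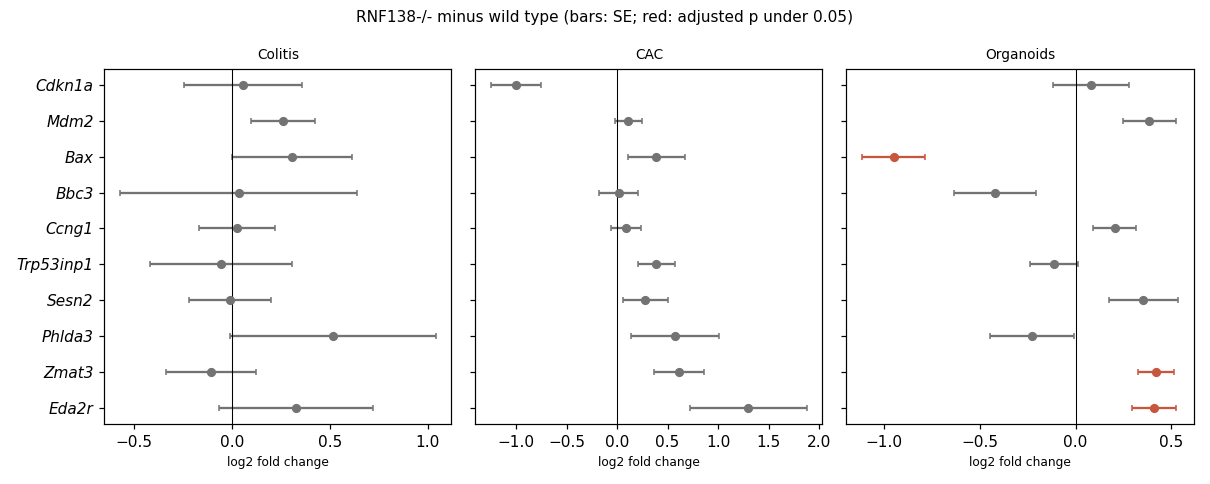
Log2 fold change of RNF138-/- over wild type (points) with its SE (bars) for the 10 genes in colitis, CAC and organoids, each panel with its own scale; red marks an edgeR adjusted p under 0.05. Red points are in the organoid panel, *Bax* at −0.95, *Zmat3* at 0.42 and *Eda2r* at 0.41.

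Whether the genotype difference itself differed between models was tested by interaction in the fit of all 18 libraries. Y-linked genes (4 summed) were at 0 CPM in the wild-type organoids and at 242 to 281 CPM in the RNF138-/- ones. In every interaction with the organoids, here and below, genotype and the sex of the source mice therefore cannot be told apart on the organoid side. *Bax* was the 1 gene called, its difference being 1.34 lower in organoids than in CAC on the log2 scale (−1.34 ± 0.41, edgeR adjusted p = 0.0268), with 23.3% of 19390 genes called, 10.2% as lower. That call was lost when any 1 of 6 libraries was left out, at an adjusted p of 0.05 to 0.0777. Organoids against colitis gave *Bax* −1.22 ± 0.41 (0.0789) and 0 calls of 10 (1 at an unadjusted p under 0.05, 1 by DESeq2), against 7.11% of genes (24.9% unadjusted, 13.1% by DESeq2). CAC against colitis gave 0 calls of 10 by edgeR (2 unadjusted, 0 by DESeq2), against 14.1% (30.1% unadjusted, 18.9% by DESeq2). *Cdkn1a* stood at −1.0 ± 0.39 (edgeR, adjusted p = 0.0977) for CAC against colitis and at 1.06 ± 0.39 (0.0615) for organoids against CAC. Leaving out 1 library gave *Cdkn1a* a call in the first without RNF138-/- colitis replicate 3 (−1.31, 0.0177), where *Trp53inp1* was also called (0.97, 0.0394), or wild-type CAC replicate 2 (−1.21, 0.0437), where *Zmat3* was also called (1.0, 0.0236), and in the second without wild-type CAC replicate 2 (1.26, 0.0317). The second was also called without a filter (1.08, 0.0466), with DESeq2 (1.12, 0.0301), with the GC correction (1.05, 0.0334) and without the 3 libraries that stood apart (0.81, 0.0393). Without RNF138-/- colitis replicate 3 *Bax* was called for organoids against colitis (−1.50, 0.0230).

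Of the p53 regulators, *Trp53*, the gene of p53 itself, read 52.1, 52.2 and 45 against 48.7, 46.7 and 38.5 CPM in colitis, 58.1, 68.2 and 41.2 against 102, 104 and 102 in CAC, and 86.5, 95.5 and 104 against 90.8, 87.6 and 99.4 in the organoids. The RNF138-/- CAC libraries were thus at the organoid level, above those of wild-type CAC. The genotype difference in CAC was 0.82 ± 0.19 on the log2 scale (edgeR, adjusted p = 0.0513), and it exceeded that in colitis by 1.03 ± 0.23 (0.00913) and that in the organoids, where the interaction was −0.92 ± 0.23 (0.00905). *Mdm4*, a relative of Mdm2 that silences p53, fell in organoids relative to CAC by 1.5 on the log2 scale (SE 0.14, adjusted p = 8.73e-08), opposite to *Mdm2*. *Cdkn2a*, whose ARF product inhibits Mdm2, had 0.0516 to 0.898 CPM in colitis, 0.0947 to 26.7 in CAC and 37.5 to 101 in the organoids. It was called higher at both steps (5.18 ± 0.66 and 2.21 ± 0.49, edgeR adjusted p = 1.15e-05 and 0.000814), its colitis level resting on 12 counts in wild-type and 28 in RNF138-/- libraries. The second step was called within the wild type (3.33 ± 0.73, 0.00104), where 1 CAC library was at 0.0947 CPM, and not within RNF138-/- (1.09 ± 0.67, 0.169). Of the 16 regulators and sensors listed, 9 were higher and 0 lower in CAC than in colitis among 15 tested (28.1% of all genes were called higher and 26.5% lower). Within the wild type 2 were higher and 1 lower, against 19.8% of all genes called, and within RNF138-/- 9 were higher and 1 lower, against 54.7%. The interaction of genotype with this step was called for 3 of the 15 (14.1% of all genes). In organoids relative to CAC 4 were higher and 5 lower (70.9% of all genes). The 4 higher were *Cdkn2a*, *Hipk2* (1.07 ± 0.24), *Kat5* (0.56 ± 0.11) and *Trp53* (0.31 ± 0.11, edgeR adjusted p = 0.0218). Among the 5 lower were *Mdm4* and the checkpoint kinases *Atm* (−1.17 ± 0.28), *Chek2* (−1.0 ± 0.13) and *Atr* (−0.76 ± 0.20). Between genotypes 1 of 14 was called in CAC (6.38% of all genes), *Chek1* (1.06 ± 0.22, adjusted p = 0.0437). Among organoids 6 of 14 were called, against 35.5% of all genes, of which 5 rose, led by *Hipk2* (1.17 ± 0.21, 0.00528), a kinase that phosphorylates p53, and 1 fell, *Rchy1* (−0.63 ± 0.13, 0.00811).

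A longer list of 38 other p53 targets was read beside the 10. It had 24 higher and 9 lower in organoids than in CAC, where 30.7% of all genes were higher and 40.2% lower (median log2 fold change 0.81), with *Plk2*, a polo-like kinase, at 3.61 ± 0.22 (edgeR, adjusted p = 1.29e-09) and *Gdf15*, a stress cytokine, at 3.93 ± 0.47 (1.65e-06). *Ddb2*, a DNA repair gene, was at −1.70 ± 0.20 there. In CAC relative to colitis 17 of the 38 were higher and 6 lower, against 28.1% and 26.5% of all genes, with *Dyrk3* at 3.03 ± 0.43 (3.06e-05) and *Steap3*, an iron reductase, at −1.69 ± 0.20 (5.59e-06, edgeR). Within the wild type 6 were higher and 3 lower (19.8% of all genes were called), and within RNF138-/- 16 were higher and 8 lower (54.7%). The interaction was called for 6 of the 38 (14.1% of all genes). Between genotypes 0 of 37 were called in colitis (edgeR; 5 unadjusted, against 10.4% of all genes), 1 of 38 in CAC (6.38% of all genes), *Steap3* at −1.59 ± 0.23 (0.0272), and 15 of 37 in the organoids, against 35.5% of all genes. There 8 were higher, among them *Steap3* (1.79 ± 0.29, edgeR adjusted p = 0.00419) and the autophagy gene *Dram1* (1.64 ± 0.24, 0.00317), and 7 lower, among them the phosphatase *Ppm1d* (−0.65 ± 0.15, 0.0131) and *Tigar* (−0.68 ± 0.16, 0.0146). *Steap3* was thus lower in RNF138-/- CAC and higher in RNF138-/- organoids, an interaction of 3.35 ± 0.40 (9.12e-05).

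*Sesn2* is also a target of ATF4, the transcription factor of the amino acid and unfolded protein response. The ATF4 list was called higher in 11 of 11 genes, *Sesn2* included, in organoids relative to CAC, where 30.7% of all genes were higher. Its median was 1.79 on the log2 scale. Between the organoid genotypes 4 of the 11 were higher and 3 lower in RNF138-/-, against 35.5% of all genes called. The part of ATF4 in the values of *Sesn2* was not tested. *Atf4* itself rose from 151 to 249 CPM in CAC to 578 to 810 CPM in the organoids (1.84 ± 0.14, edgeR adjusted p = 1.44e-08). The cell cycle list went the other way, with 18 of 20 genes lower and 2 higher (median −1.18), where 40.2% of all genes were lower and 30.7% higher. *Mki67*, which marks dividing cells, had 148 to 228 CPM in CAC and 15.9 to 52.1 CPM in the organoids (−2.33 ± 0.20, 4.11e-08). In RNF138-/- relative to wild-type CAC 0 of these 20 genes were called (edgeR; 13 unadjusted, against 33.8% of all genes), while among organoids 5 rose and 1 fell, against 35.5% of all genes called.

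Across the 18 libraries all 45 pairs among the 10 genes correlated positively in log2 CPM, from 0.03 (*Bbc3* and *Trp53inp1*) to 0.96 (*Ccng1* and *Zmat3*), with a median Pearson r of 0.77. These values describe libraries that share a model and its cell makeup, and no test was made on them. Once each group's mean had been taken away, 29 of the 45 stayed above 0, with a median of 0.09 and a range of −0.64 (*Cdkn1a* and *Trp53inp1*) to 0.94 (*Bax* and *Phlda3*). *Bbc3* and *Phlda3* had 0.79, and the 3 genes of that trio are the GC-richest of the 10. Among all 19390 genes tested, those whose log2 CPM ran most like a member over the 18 libraries were *Ckap4* (r = 0.99), *Fto* and *Mmp14* (both 0.986) for *Zmat3*, *Cbarp*, *Pcbp4* and *Ubtd1* (0.983, 0.982 and 0.98) for *Phlda3*, *Maml1*, *Egr3* and *Lrrc32* (0.983, 0.98 and 0.978) for *Sesn2*, and *Arl4c*, *Elk3* and *Ptk7* (0.982, 0.98 and 0.976) for *Eda2r*. For *Mdm2* they were *Tnfrsf9*, *Wisp1* and *Ctsl* (0.98, 0.979 and 0.979), for *Cdkn1a* *Slc35e4*, *Unc5b* and *Adipor1* (0.958 each), and for *Bax* *Dad1*, *Ttll11* and *Bcam* (0.963, 0.951 and 0.95). *Trp53inp1* was nearest to *Nr2c1* (0.97), *Ccng1* to 9530068E07Rik (0.972) and *Bbc3* to *Fxr2* (0.932).

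**Figure D5:**
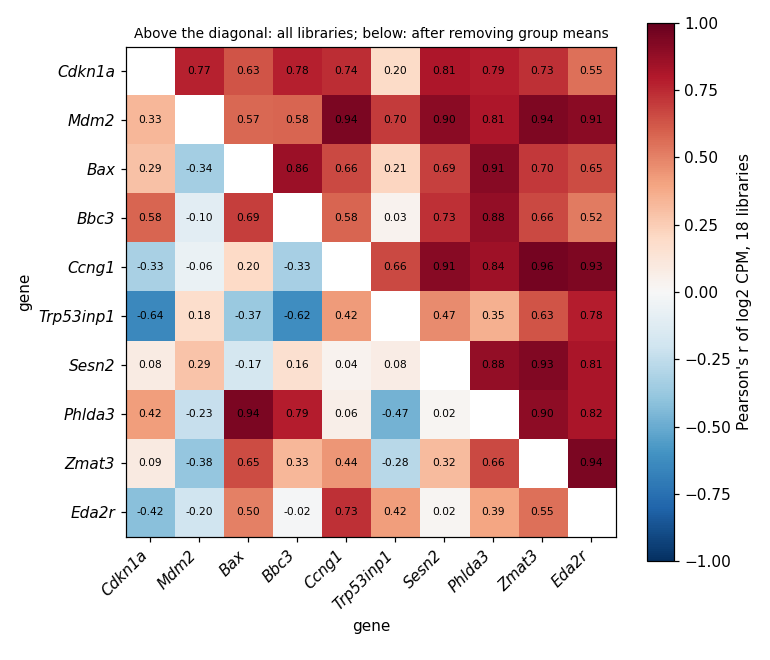
Pearson's r of log2 CPM between pairs of the 10 genes over 18 libraries, above the diagonal with all variation and below it after the mean of each group was removed. All 45 values above the diagonal are positive, and below it the block of *Bax*, *Bbc3* and *Phlda3* holds values of 0.69 to 0.94.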

How the data were processed

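The authors deposited a table of raw read counts per gene for 18 libraries. Per the labels, TruSeq libraries were made from total RNA, and the submitters' processing notes name STAR 2.6.1d, HTSeq 0.11.2, DESeq2 and mm10, while the study's methods also name Cufflinks and Gencode, and strand was not stated. A second deposited table of the authors' own log2 fold changes and p-values was not used. Counts were scaled by TMM, filtered by filterByExpr and fitted with edgeR 4.0.16 (R 4.3.3) by quasi-likelihood, per model for the genotypes and over all 18 libraries otherwise, with Benjamini-Hochberg adjustment over all genes tested and a call at an adjusted p under 0.05. SE is the log2 fold change over the root of F. CPM used TMM over all libraries, and CPM per kb the union of exons in Gencode for mm10, to which 99.84% of IDs matched. Replicates of a group differed by more than sampling noise (chi-square over degrees of freedom 7.44 to 144). The fits were tested on simulated data with a single spread for all genes, a check of the code that does not bear on the calls here.

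The 10 genes and all lists were chosen with earlier results of these data known. Beside the 10, the text names *Trp53*, *Mdm4* and *Atf4*, *Rnf138*, and genes drawn from up to 4 per direction, list and comparison with the largest change among those called, and the nearest genes by r. Alternatives were RLE, upper-quartile or no scaling, no filter, DESeq2 1.42.0, a replicate block, each library left out, a single fit, a Y-linked covariate, each genotype alone, a fold change of 2 and, chosen after seeing the data, a GC correction and 3 libraries left out (colitis replicates 3 and wild-type CAC replicate 3). The promoter search used RefSeq sequences of mm10. Lower depth makes counts less precise, other effects of depth were not tested, and intervals across libraries are given as SD or SE. The result of 1 listed gene is not reported here.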

Additional observations from a re-analysis of the deposited data

Results flagged for a closer look

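The genotype difference of *Bax* was 0.39 ± 0.28 in CAC and −0.95 ± 0.16 in the organoids on the log2 scale, in fits of each model alone, and the test of the difference between them gave −1.34 ± 0.41 (edgeR quasi-likelihood interaction in all 18 libraries, adjusted p = 0.0268). It was lost at 6 of 12 leave-one-out fits (value −1.54 to −1.06, adjusted p 0.0167 to 0.0777), those without wild-type CAC replicate 3, RNF138-/- CAC replicate 2 or 3, wild-type organoid replicate 2, and RNF138-/- organoid replicate 2 or 3. *Bax* read 15.5 to 37.4 CPM in CAC and 50.2 to 132 CPM in the organoids. Genotype and the sex of the source mice cannot be told apart on the organoid side, where Y-linked genes were at 0 CPM in the wild type and at 242 to 281 CPM in RNF138-/-.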

How the results depend on the processing

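The counts of the 10 genes called that changed with the setting are given with the share of all genes called in brackets. In CAC, 0 (6.38%) became 1 without a filter (5.77%), with DESeq2 (22.7%) and with 3 libraries left out (8.87%), and 3 in the single fit (23.5%). In the organoids, 3 (35.5%) became 0 with a fold change of 2 (15%) and with the Y-linked covariate (0%), 2 without scaling (41.9%), with upper-quartile factors (37.2%), with the replicate block (26.4%) and in the single fit (16.8%), and 4 without a filter (20%) and with DESeq2 (37%). In CAC minus colitis, 5 (54.6%) became 1 with a fold change of 2 (28%), 1 in the wild type alone (19.8%) and 9 with 3 libraries left out (60.7%). In organoids minus CAC, 9 (70.9%) became 8 with a fold change of 2 (45.4%) and in RNF138-/- alone (59.9%). The organoid minus CAC interaction, 1 (23.3%), became 2 without a filter (10.6%), with DESeq2 (27.8%), with the GC correction (27.6%) and with 3 libraries left out (23.5%), and the organoid minus colitis interaction, 0 (7.11%), became 1 with DESeq2 (13.1%), the GC correction (10.6%) and 3 libraries left out (11.2%). With each library left out in turn the counts were 0 to 0 in colitis (0% to 0.87%), 0 to 1 in CAC (0% to 8.87%), 1 to 5 in the organoids (17.2% to 44%), 4 to 7 in CAC minus colitis (48.2% to 56.5%), 9 to 9 in organoids minus CAC (67.1% to 70.2%), and in the interactions 0 to 2 for CAC minus colitis (7.72% to 17.2%), 0 to 2 for organoids minus CAC (15.8% to 23.6%) and 0 to 1 for organoids minus colitis (2.38% to 9.59%).

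Log2 fold changes that turned were, in colitis, *Bbc3* to −0.026 and *Ccng1* to −0.0021 without scaling, *Trp53inp1* to 0.012 and *Sesn2* to 0.055 with upper-quartile factors, *Ccng1* to −0.00055 without a filter, *Cdkn1a* to −0.024 and *Bbc3* to −0.065 with the Y-linked covariate, *Bbc3* to −0.099 with the GC correction, and *Bbc3* to −0.060 and *Zmat3* to 0.11 with 3 libraries left out. In CAC *Bbc3* turned to −0.030 (GC correction) and −0.082 (3 libraries left out). In the organoids *Cdkn1a* turned to −0.11 without scaling, and with the Y-linked covariate, which follows genotype there, *Mdm2* went to −0.36, *Bax* to 5.41, *Bbc3* to 5.30, *Trp53inp1* to 4.4 and *Phlda3* to 3.69, at adjusted p values of 1. In CAC minus colitis *Sesn2* turned to 0.026 without scaling and 0.0073 in RNF138-/- alone, *Cdkn1a* to 0.25 in the wild type alone, and with the GC correction *Bax* to 0.51, *Bbc3* to 0.40, *Sesn2* to 0.20 and *Phlda3* to 0.56. In organoids minus CAC *Trp53inp1* turned to −0.24 without scaling, −0.054 with upper-quartile factors and −0.090 in RNF138-/- alone. Leave-one-out ranges that crossed 0 were, in colitis, *Bbc3* −0.40 to 0.62, *Ccng1* −0.076 to 0.22, *Cdkn1a* −0.12 to 0.33, *Sesn2* −0.11 to 0.13, *Trp53inp1* −0.57 to 0.19 and *Zmat3* −0.24 to 0.091, in CAC *Bbc3* −0.082 to 0.086 and in the organoids *Cdkn1a* −0.12 to 0.21. The cause of these turns was not tested.

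The replicate numbers do not mark shared animals in the labels, and deviations of same-numbered libraries correlated between −0.114 and 0.38. With the replicate block the organoid calls were 2, *Eda2r* being at 0.41 (adjusted p = 0.0704), *Cdkn1a* turned to −0.0012 in colitis and the other counts of calls were the same. The median of all genes lay at 0.27 in CAC, −0.24 in the organoids and 0.22 in CAC minus colitis without a scaling factor. At 17 counts, *Eda2r* in wild-type CAC replicate 3 rests on the thinnest data.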
